A study of Mus musculus with 10 samples.

Results

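The nuclear-encoded subunits of the mitochondrial respiratory chain were followed through 10 RNA libraries of differentiating mouse embryonic stem (ES) cells. Members were the rows of the deposited expression table whose gene symbol begins with Ndufa, Ndufb, Ndufc, Ndufs or Ndufv and a digit, with Uqcr, with Cox and a digit from 4 to 8 or with Atp5, or is Sdha, Sdhb, Sdhc or Sdhd. The rule found 85 of 21937 symbols. Of these, 35 belong to complex I, 4 to complex II, 8 to complex III, 19 to complex IV and 15 to complex V, with Ndufa4 and Ndufa4l2 placed in complex IV, to which the Ndufa4 protein was reassigned. The other 4 share only the start of the symbol. Cox4nb is a gene of the endoplasmic reticulum membrane complex next to Cox4i1, Cox7a2l encodes a factor that joins respiratory complexes into supercomplexes, and Atp5s and Atp5sl are not subunits of complexes I to V.

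The respiratory chain sits in the inner mitochondrial membrane. Complexes I and II pass electrons from NADH and succinate to ubiquinone, complex III passes them on to cytochrome c, complex IV hands them to oxygen, and complex V, the ATP synthase, uses the proton gradient so built to make ATP. Most subunits come from nuclear genes used by nearly every cell, while some complex IV subunits exist as pairs in which a second isoform is made mainly in heart and skeletal muscle, lung or testis. Pluripotent cells are known for heavy use of glycolysis, and neurons for reliance on respiration.

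The study compared 3 conditions during differentiation toward neuroectoderm as serum-free embryoid bodies (SFEB). They were Tet3 knockout cells given Dkk, Tet3 knockout cells and wild-type (WT) cells, each on day 10 and day 6. Tet3 oxidises methylated cytosine in DNA, and Dkk is the name of a family of secreted Wnt inhibitors. A culture with fetal bovine serum (FBS), which does not favour neural differentiation, gave Tet3-overexpressing and control cells on day 7 and day 4. All cells had the C57BL/6 background, and the knockout cells came from mice with floxed Tet3 alleles, the floxed exon having been removed by transient Cre. The labels do not say how Tet3 was overexpressed, which Dkk protein was given or how many clones were used. There was 1 library per condition and day, so a difference between 2 libraries has no replicate check.

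Expression was given as RPKM, read numbers scaled to transcript length and to library size. Depth was estimated from the value steps of low genes, which can give a multiple of the true number. It came to 37000000 reads in the knockout with Dkk of day 10, to between 10100000 and 11300000 in the other 5 SFEB libraries, and to between 17300000 and 43900000 under FBS. Tet3 stood at 14.1 RPKM in overexpressing and 5.87 RPKM in control cells on day 7, and 12.5 in overexpressing and 0.96 RPKM in control cells on day 4. In SFEB culture Tet3 stood at 14.3 RPKM in knockout and 10.2 RPKM in WT cells on day 10, and day 6 gave 6.59 RPKM in knockout and 8.11 RPKM in WT cells, but these whole-gene values include exons outside the deletion and do not check the genotype. The label of embryonic stem cells was checked against Pou5f1, a defining pluripotency gene, which stood at 207 to 1186 RPKM in FBS libraries and at 3.06 to 58.1 RPKM in SFEB libraries, where the day 10 libraries held 1293 to 1635 RPKM in sum of 5 neuron genes. The WT library of day 10 stood apart. Its deviations from the mean of all libraries went with the GC content of transcripts at a Pearson r of -0.31 across all genes and -0.40 across members. The other 9 libraries gave -0.08 to 0.16 across all genes and, more widely spread, -0.13 to 0.32 across members. Genes of a sample share its library, so these r are descriptions.

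Promoters are shown for 2 isoform pairs of complex IV and for the members with the smallest p for 2 terms of the fit described further on, the SFEB day and the knockout, Atp5l and Ndufa11. The complex IV pairs contrast a tissue isoform, Cox7a1 or Cox6b2, with its common partner, Cox7a2 or Cox6b1. Each line gives the 250 bases before the transcript start, 5′ to 3′ on the gene's own strand, from RefSeq on the build GRCm38.p6. Capitals mark exact matches, on either strand, to motifs known for nuclear genes of respiration or for housekeeping promoters, namely GCGCATGC of NRF1, CCGGAAG of the ETS family with GABP, GGGCGG of the SP family and AAGATGGCG of YY1. The windows are chr7:30183921-30184170 on the plus strand for Cox7a1, chr9:79759854-79760103 on the minus strand for Cox7a2, chr7:4753095-4753344 on the minus strand for Cox6b2, chr7:30626115-30626364 on the minus strand for Cox6b1, chr9:44920743-44920992 on the minus strand for Atp5l and chr17:56717512-56717761 on the plus strand for Ndufa11.
Cox7a1: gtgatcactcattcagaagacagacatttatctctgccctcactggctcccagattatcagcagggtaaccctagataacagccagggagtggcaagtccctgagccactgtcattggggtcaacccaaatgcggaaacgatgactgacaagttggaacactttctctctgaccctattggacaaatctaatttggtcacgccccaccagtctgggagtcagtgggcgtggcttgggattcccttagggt
Cox7a2: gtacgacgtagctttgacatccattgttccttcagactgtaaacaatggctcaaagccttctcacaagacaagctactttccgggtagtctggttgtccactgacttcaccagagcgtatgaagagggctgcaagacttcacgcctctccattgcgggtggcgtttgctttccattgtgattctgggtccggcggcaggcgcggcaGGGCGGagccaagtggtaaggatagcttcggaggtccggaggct
Cox6b2: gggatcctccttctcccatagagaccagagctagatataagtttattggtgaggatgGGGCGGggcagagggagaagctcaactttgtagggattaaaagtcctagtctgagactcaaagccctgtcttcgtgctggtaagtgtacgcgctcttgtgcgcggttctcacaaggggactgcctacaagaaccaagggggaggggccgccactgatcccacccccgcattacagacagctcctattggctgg
Cox6b1: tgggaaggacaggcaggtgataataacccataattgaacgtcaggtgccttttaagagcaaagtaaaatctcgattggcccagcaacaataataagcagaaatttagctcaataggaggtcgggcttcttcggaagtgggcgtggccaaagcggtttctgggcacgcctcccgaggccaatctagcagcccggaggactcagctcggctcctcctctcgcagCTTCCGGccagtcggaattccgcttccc
Atp5l: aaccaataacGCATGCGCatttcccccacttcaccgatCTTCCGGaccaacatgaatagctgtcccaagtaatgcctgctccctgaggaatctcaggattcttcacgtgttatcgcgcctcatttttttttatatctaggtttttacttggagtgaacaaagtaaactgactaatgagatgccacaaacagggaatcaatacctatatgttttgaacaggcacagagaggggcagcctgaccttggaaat
Ndufa11: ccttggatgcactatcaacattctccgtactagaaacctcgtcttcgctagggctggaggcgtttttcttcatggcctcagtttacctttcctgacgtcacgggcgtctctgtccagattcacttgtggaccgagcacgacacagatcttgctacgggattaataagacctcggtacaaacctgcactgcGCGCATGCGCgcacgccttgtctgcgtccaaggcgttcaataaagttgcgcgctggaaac

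The Cox7a1 window held none of the 4 motifs, those of Cox7a2 and Cox6b2 held the SP motif, and that of Cox6b1 held the ETS motif. Atp5l had an NRF1 and an ETS match, and Ndufa11 had 2 overlapping NRF1 matches, 1 on each strand. A promoter was found for 69 members. Over windows from 250 bases before to 50 after the start, the NRF1 motif was in 10 members (14.5%, against 3.05% of 27025 promoters), the ETS motif in 16 (23.2%, against 9.93%), the SP motif in 28 (40.6%, against 38.2%) and the YY1 motif in 8 (11.6%, against 1.64%). Among promoters of genes at 1 RPKM or more in any library, the shares were 5.89% for NRF1, 18.6% for ETS, 70.2% for SP and 3.28% for YY1. Matches to these letters are descriptions and not measured binding sites.

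Most members were abundant in every library. Over 10 libraries the complex V subunits had the highest median level, with a median geometric mean of 343 RPKM, followed by complex III at 138, complex IV at 135, complex II at 91.5 and complex I at 81.1 RPKM, counting members at 1 RPKM or more in any library. Atp5b, the catalytic beta subunit of the ATP synthase, led all members with a geometric mean of 899.7 RPKM, and Cox4i1, a large nuclear subunit of complex IV, followed with 840.01 RPKM. Uqcrh, the hinge protein of complex III, led its complex with 448 RPKM. In complex I, Ndufb8, an accessory subunit of the membrane arm, led with 165 RPKM and Ndufa11, another membrane-arm subunit, was lowest at 20.3 RPKM. All 4 subunits of complex II lay close together, from 97.4 RPKM for the membrane anchor Sdhd to 85.8 RPKM for the anchor Sdhc. Atp5j, coupling factor 6 of the ATP synthase, stood at 10.8 RPKM, far under the other complex V subunits, of which the next lowest, Atp5g1, had 89.4 RPKM.

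Ndufs5, a complex I subunit, was listed at 0 in all 10 libraries. Cells with an assembled complex I use this gene, so the 0 can be a failed estimate and is given only as listed. Cox7b2, Cox8b and Cox8c, isoforms known from testis or heart and muscle, stayed under 1 RPKM in every library, which left 81 members for comparisons across both cultures. Of the 85, 79 passed 1 RPKM in at least 1 SFEB library and 80 in at least 1 FBS library. Cox4i2 and Ndufa4l2 were the further members under the filter in SFEB, and Cox6a2 the further one in FBS.

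**Figure D1:**
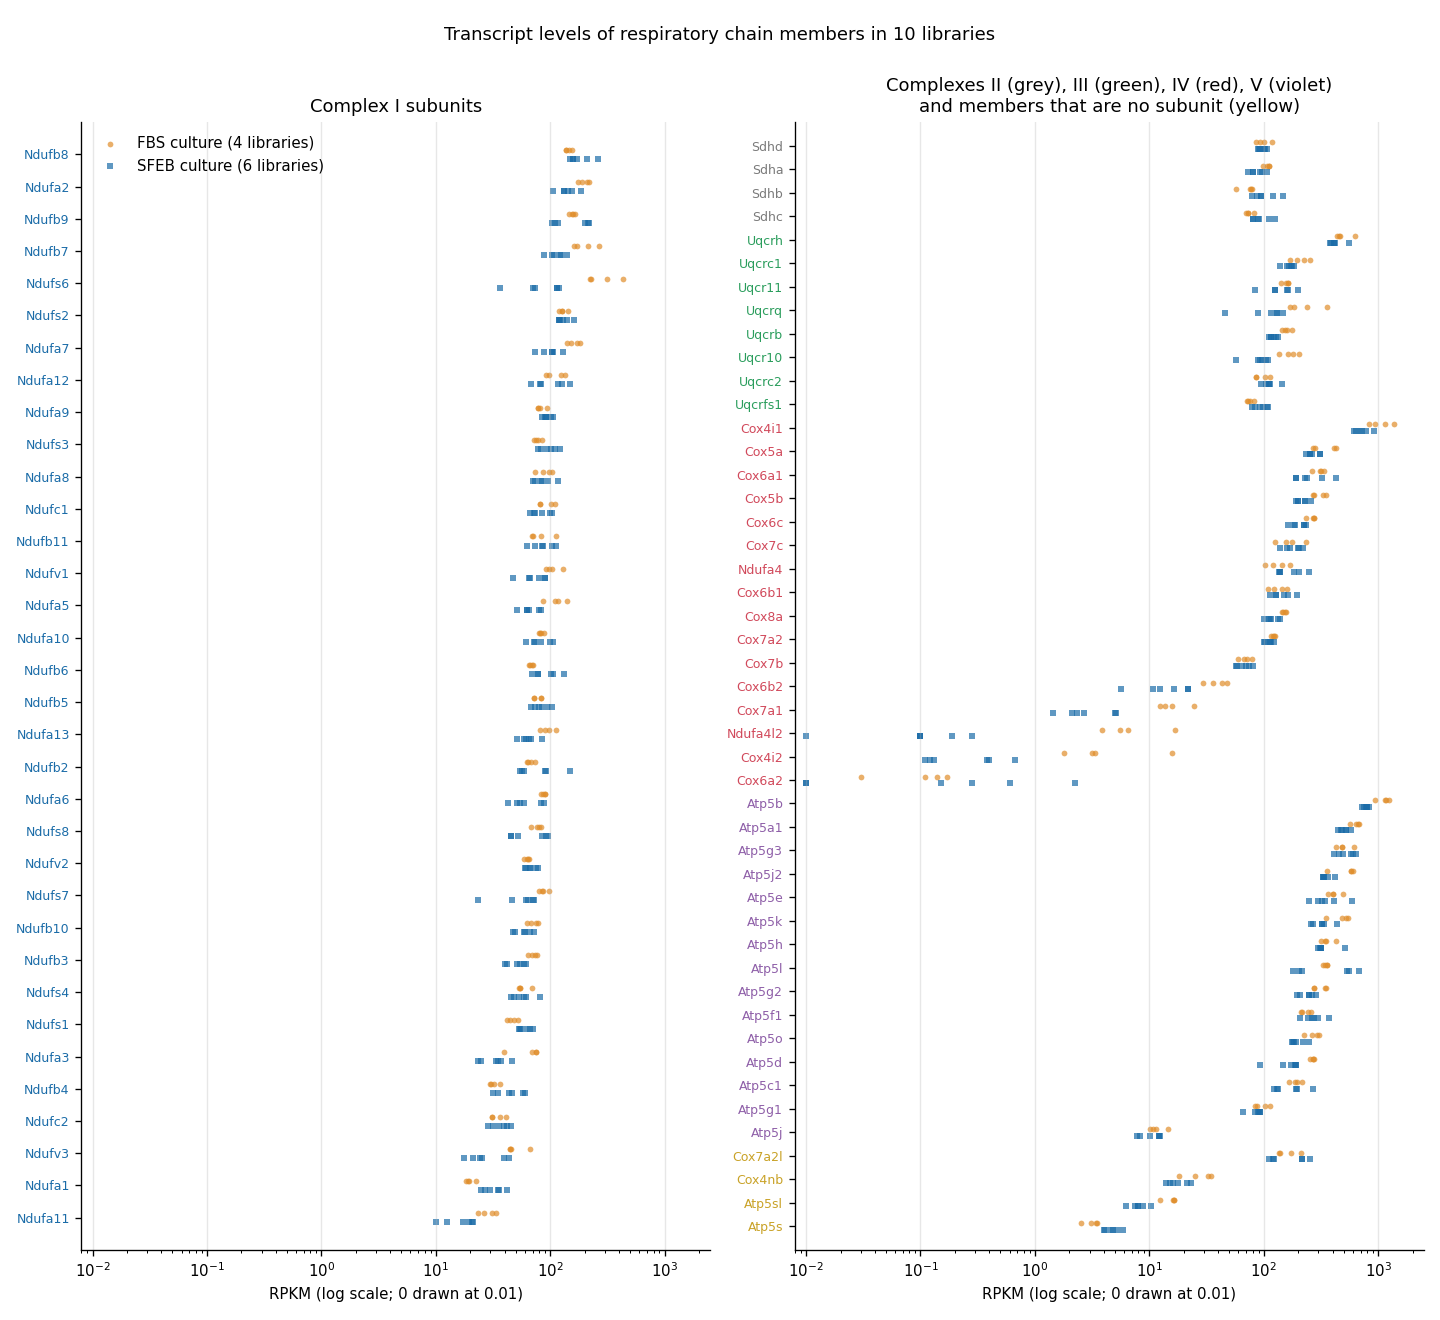
Each point is a library, with RPKM on a log axis across and members down the page, FBS libraries as orange circles above SFEB libraries as blue squares. Most members lie between 20 and 1000 RPKM with overlapping cultures, and the isoforms Cox6b2, Cox7a1, Ndufa4l2 and Cox4i2 stand out with all FBS points right of all SFEB points.

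Levels of the abundant members varied little. Among members with a geometric mean of 20 RPKM or more, 74 in number, the median SD of the log2 level over 10 libraries was 0.30, against 0.40 for the 3811 genes of the table at that level. Cox7a2, the common isoform of complex IV subunit 7a, was the steadiest, with an SD of 0.11 and values from 100.7 RPKM in the knockout with Dkk of day 6 to 126 RPKM in overexpressing cells of day 4. Ndufs6, a zinc-binding subunit that joins complex I late in its assembly, varied most among them, with an SD of 1.08. It stood at 312 RPKM in overexpressing and 228 RPKM in control cells on day 7, and 428 in overexpressing and 221 RPKM in control cells on day 4. In SFEB culture it had 114 RPKM in the knockout with Dkk, 71.1 in the knockout and 36.5 in WT on day 10, and 114 in the knockout with Dkk, 119.9 in the knockout and 73.0 RPKM in WT on day 6. The FBS libraries were thus all above the SFEB libraries, and within each day WT was the lowest of the 3 SFEB conditions.

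For 55 of 81 members the levels of FBS and SFEB libraries overlapped. In 22 of 81 members all 4 FBS libraries lay above all 6 SFEB libraries, against 12.2% of all 13757 genes, and in 4 they lay below, against 20.0% of all genes. The 22 were 9 of complex I, 3 of III, 7 of IV, 2 of V and Atp5sl. The 22, and the 7 of complex IV, include Cox4i2 and Ndufa4l2. Both passed the filter only through FBS libraries, so their place in the count was largely fixed by the filter. The 4 below were Ndufa1 and Ndufs1 of complex I, Sdhb of complex II and Atp5s, of which Ndufa1, Ndufs1 and Sdhb were named after their values were seen. The median difference of mean log2 levels, FBS minus SFEB, was 0.20 over members and -0.14 over all genes. Culture, day and line differed together, so their parts cannot be told apart. Without the WT library of day 10 the counts were again 22 and 4, against 12.5% and 20.9% of all genes. Without the control library of day 7 they were 26 and 8, against 18.4% and 28.6% of all genes.

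These counts moved with the scale. The summed RPKM of FBS libraries was 1.17 times that of SFEB libraries at the median. With every library set to the same sum, 9 members lay above and 11 below, against 8.66% and 27.9% of all genes. With every library divided by its median gene, 35 lay above and 1 below, against 16.0% and 14.7% of all genes. Both scalings and both omissions of a library were chosen after the data were seen. The largest differences of mean log2 level, all with FBS higher, were 3.59 in Ndufa4l2, 2.62 in Cox4i2, 2.31 in Cox7a1, 1.81 in Ndufs6 and 1.48 in Cox6b2. Ndufa4l2 and Cox4i2 passed the filter of 1 RPKM only through their FBS libraries, so they had to differ and their values are descriptions.

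Ndufa4l2, a paralogue of the complex IV subunit Ndufa4 known as a gene switched on by low oxygen, stood at 5.58 RPKM in overexpressing and 3.84 RPKM in control cells on day 7, and 6.46 in overexpressing and 16.6 RPKM in control cells on day 4. All 6 SFEB libraries held 0 to 0.28 RPKM. It was therefore detected well in FBS culture and at or near 0 in SFEB culture, with the highest value in control cells of day 4. Ndufa4 itself did not separate the cultures, with 103 to 168 RPKM in FBS and 136 to 248 RPKM in SFEB libraries.

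Cox4i2, the lung isoform of subunit 4 and likewise known to respond to low oxygen, stood at 1.81 RPKM in overexpressing and 15.9 RPKM in control cells on day 7, and 3.32 in overexpressing and 3.15 RPKM in control cells on day 4. SFEB libraries held 0.11 to 0.67 RPKM. One library, the control of day 7, was thus far above the other 9. Its share of the subunit 4 transcripts (Cox4i2 in the sum with Cox4i1) was 1.66%, against 0.16% in overexpressing cells of that day. The overexpression minus control difference on day 7 was -2.82 on the log2 scale of RPKM + 0.5, with a 95% interval of -3.80 to -2.51 for the ratio without that offset. Intervals of this kind rest on 23 and 311 estimated reads here and cover counting error only. In the same library the 7 heart and striated muscle genes summed to 110.5 RPKM and the 4 fibroblast and matrix genes to 255 RPKM, against 18.8 and 15.4 RPKM in overexpressing cells, and 6.69 to 10.5 RPKM and 24.0 to 43.8 RPKM on day 4. Their part in the Cox4i2 level was not tested. As RNA came from whole cultures, more cells of a type and more RNA per cell cannot be told apart.

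Cox7a1, the heart and muscle isoform of subunit 7a, stood at 15.6 RPKM in overexpressing and 13.7 RPKM in control cells on day 7, and 24.7 in overexpressing and 12.4 RPKM in control cells on day 4. SFEB libraries had 5.09 RPKM in the knockout with Dkk, 4.99 in the knockout and 1.44 in WT on day 10, and 2.31 in the knockout with Dkk, 2.11 in the knockout and 2.67 RPKM in WT on day 6. Every FBS library lay above every SFEB library, and in SFEB culture only the knockout libraries of day 10, with and without Dkk, passed 3 RPKM. Cox7a1 made 9.26% to 16.4% of the Cox7a1 and Cox7a2 sum in FBS and 1.39% to 4.23% in SFEB libraries.

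Cox6b2, the testis isoform of subunit 6b, had 35.95 RPKM in overexpressing and 29.7 RPKM in control cells on day 7, and 47.6 in overexpressing and 43.1 RPKM in control cells on day 4. In SFEB culture it stood at 21.95 RPKM in the knockout with Dkk, 12.4 in the knockout and 5.68 in WT on day 10, and 21.7 in the knockout with Dkk, 16.5 in the knockout and 10.7 RPKM in WT on day 6. On both days the SFEB order was the same, knockout with Dkk above knockout above WT. Its share of the Cox6b1 and Cox6b2 sum ran from 15.7% to 26.0% in FBS and from 4.82% to 14.4% in SFEB libraries.

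**Figure D2:**
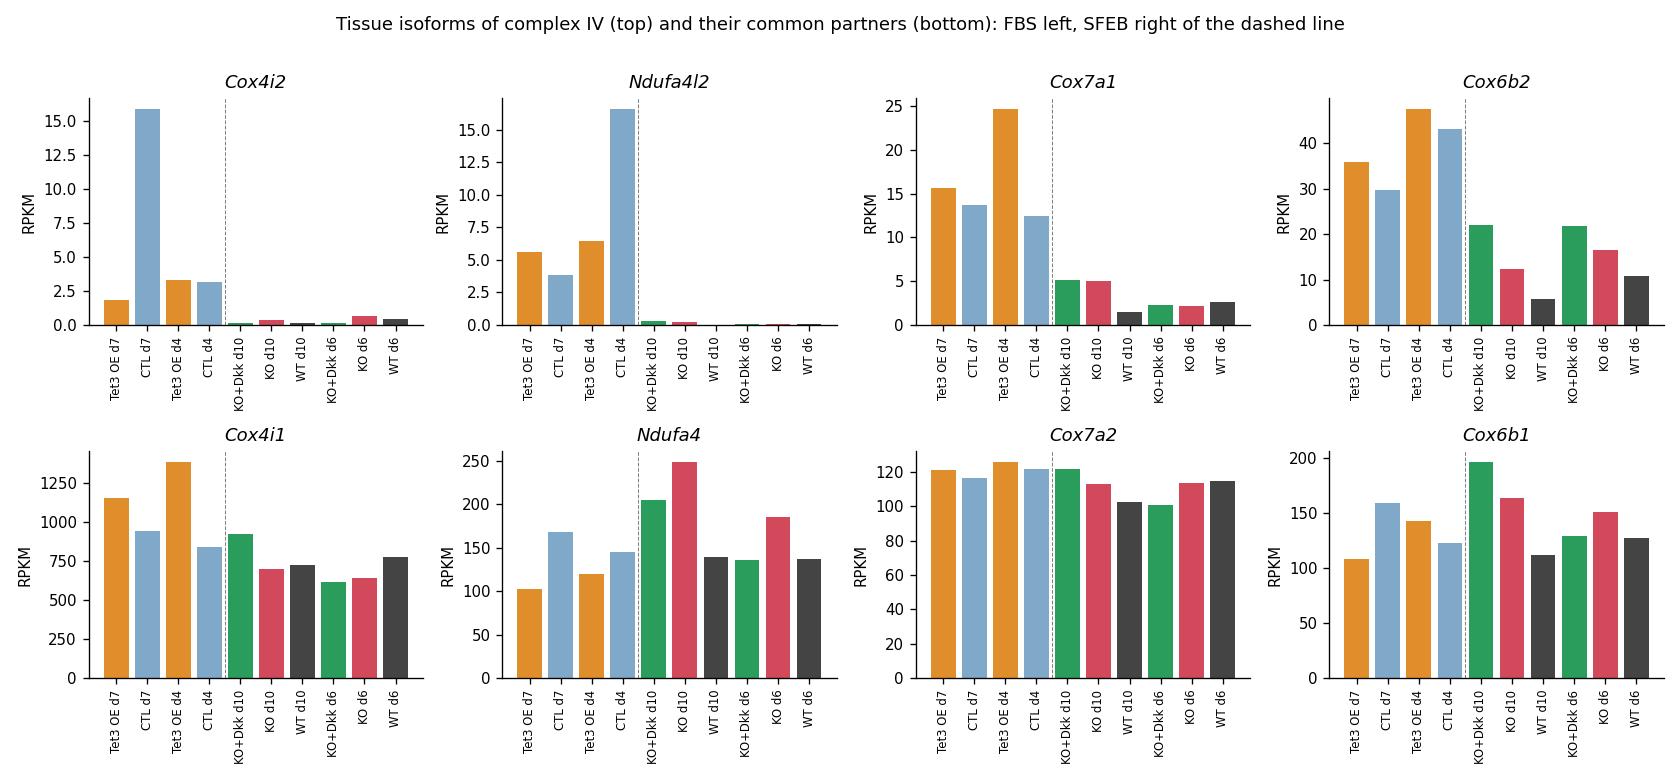
Bars give RPKM in each library for 4 tissue isoforms in the top row and their common partners in the bottom row, FBS libraries left and SFEB libraries right of the dashed line. All 4 isoforms stand higher in FBS libraries, with Cox4i2 at 15.9 RPKM in control cells of day 7, while Cox7a2 keeps to 100.7 to 126 RPKM throughout.

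The 3 genes of the c ring, the rotating ring of the ATP synthase, encode the same mature protein with different import sequences. Atp5g3 held 51.3% to 68.6% of their summed RPKM, Atp5g2 22.4% to 36.4% and Atp5g1 8.0% to 12.7%. Atp5g3 led in all 10 libraries, and its share was highest in WT cells of day 10. The common isoforms Cox6a1 and Cox8a stood at 189 to 423 RPKM and 101 to 157 RPKM over the 10 libraries, and Cox7b at 56.9 to 79.9 RPKM. Reads of close paralogues could have been split by the authors' counting, so shares within a family are uncertain.

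Knockout cells had somewhat higher levels of most members than WT cells on both days. On day 6 the median log2 ratio, knockout minus WT, was 0.20 over 79 members and 0.00 over all 12912 genes. There 60 members were above 0 and 19 below, against 49.2% of all genes above. Medians by complex ran from 0.17 in complex IV to 0.23 in complex V. On day 10 the median was 0.21 over members and 0.06 over all genes, and complexes ran from 0.11 in V to 0.30 in II. There 58 members were above 0 and 21 below, against 54.8% of all genes above. On both days alike, 51 members were higher in the knockout, against 34.1% of all genes, and 12 were lower, against 29.4%. Genes that mark cell types differed between the same libraries. Knockout minus WT had a median of 4.70 on day 6 and 0.55 on day 10 over 4 mesoderm and somite genes, 1.30 and 3.96 over the 7 heart and striated muscle genes and 0.69 and 3.96 over the 4 fibroblast and matrix genes. It was -1.06 and 0.19 over 6 neural progenitor genes and -0.92 and -0.33 over 5 neuron genes. The part of these cell types in the members' ratios was not tested. Among 69 cytosolic ribosomal protein genes the median was 0.26 on day 6 and 0.36 on day 10, and 76 mitochondrial ribosomal protein genes had 0.13 on each day.

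Fewer members differed by 1.5-fold or more. On day 6, 5 members were higher in the knockout, against 9.60% of all genes, and 0 were lower, against 7.77%. On day 10, 14 were higher, Cox6a2 with its 0 in WT among them, against 17.9% of all genes, and Ndufb2 alone was lower, against 7.38%. Cox6a2 passed the SFEB filter only through the knockout library of day 10, so it had to be higher there and its value is a description. As shares of the 79 members tested, the higher ones were 6.33% on day 6 and 17.7% on day 10, at or under the share of the whole table. Ndufa11, Ndufs6, Ndufs7 and Cox6b2 passed 1.5-fold on both days (5.28% of all genes did), and 0 members were lower by that much on both days (2.09% of all genes were).

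Ndufs7, an iron-sulphur subunit of the catalytic core of complex I, stood at 61.3 RPKM in the knockout and 23.2 RPKM in WT on day 10, and 71.6 in the knockout and 46.6 RPKM in WT on day 6. Day 10 gave a log2 ratio of 1.38 and day 6 one of 0.61. Ndufa11 had 19.3 RPKM in the knockout and 10.05 RPKM in WT on day 10, and 21.2 in the knockout and 12.5 RPKM in WT on day 6. Uqcrq, a small subunit of complex III, had 115 RPKM in the knockout and 45.8 RPKM in WT on day 10, and 131 in the knockout and 89.1 RPKM in WT on day 6. In each of these genes the WT library of day 10 held the lowest of the 6 SFEB values. At the other end, Ndufb2, an accessory subunit of complex I, had 90.6 RPKM in the knockout and 148 RPKM in WT on day 10, but 56.75 in the knockout and 59.4 RPKM in WT on day 6. Atp5c1, the central stalk of the ATP synthase, and Atp5f1, its peripheral stalk, also stood lowest in ratio on day 10, at -0.51 and -0.44. On day 6 the lowest ratios were -0.38 in Cox4nb, -0.28 in Cox4i1 and -0.28 in Cox7a1.

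The day 10 ratios went with GC content. Across members their Pearson r with the GC content of the transcript was 0.33 and across all genes 0.35, against 0.13 and 0.08 on day 6. On day 10 the median ratio was 0.27 in the 54 members with at least 50% GC and 0.06 in the 25 below, against 0.24 and -0.16 over all genes. On day 6 it was 0.21 and 0.18 in members, against 0.02 and -0.02 over all genes. The part of GC content in the day 10 ratios was not tested beyond this split. Some comparisons without a WT library also had such an r across members. It was -0.40 for day 7 minus day 4 in overexpressing cells, against -0.07 across all genes. For Dkk it was 0.24 on each day, against 0.05 on day 10 and 0.0047 on day 6 across all genes. The rest without a WT library gave -0.11 to 0.14 across members. Transcript length, on a log scale, gave r of like size in some comparisons. Across members it was -0.29 for knockout minus WT on day 10, against -0.03 across all genes. For overexpression minus control on day 4 it was -0.36, against -0.01. The other comparisons gave -0.24 to 0.19 across members. The part of length was not tested.

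**Figure D3:**
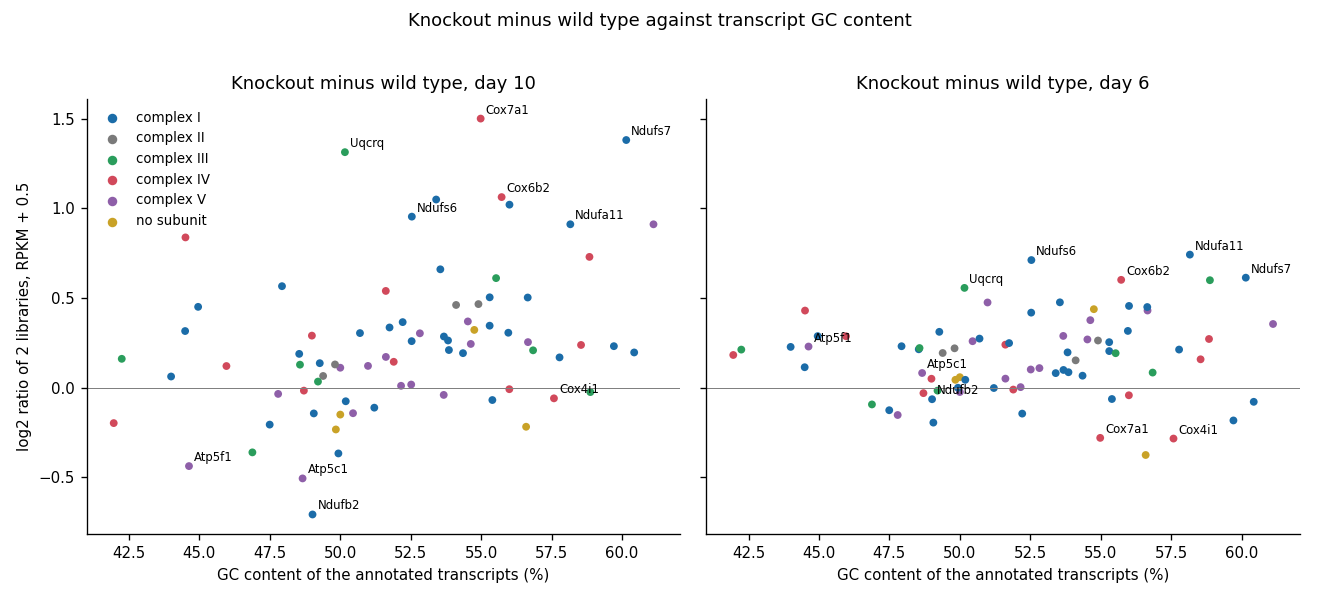
Each point is a member, with the GC content of its annotated transcripts across and the log2 ratio, knockout minus WT, up the page, day 10 left and day 6 right. Ratios tend to be larger at higher GC content on day 10 (r = 0.33), with Ndufb2 lowest at -0.71 and Ndufs7 at 1.38 among the GC-rich members, and stay within -0.38 to 0.74 on day 6. Cox6a2, listed at 0 in WT, is left out.

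Within SFEB culture Cox6a2, Cox8b and Cox7a1, heart and muscle isoforms of complex IV, were highest in knockout libraries of day 10, all low. Cox6a2 passed the SFEB filter only through the knockout library of day 10, so its peak there was fixed. Cox8b did not pass the filter in any library. Cox6a2 stood at 0.61 RPKM in the knockout with Dkk, at 2.22 RPKM in the knockout and was listed at 0 in WT on day 10, and 0.28 in the knockout with Dkk, 0.15 in the knockout and 0 RPKM in WT on day 6. Cox8b stood at 0.51 RPKM in the knockout with Dkk and 0.76 RPKM in the knockout on day 10 and was listed at 0 in the other 4 SFEB libraries. This rests on 7 estimated reads with Dkk and 3 without, and the lower bound of the 95% counting interval of knockout minus WT lay at -1.22, so counting error does not set them apart. Cox7a1 on day 10 was at 4.99 RPKM in the knockout and 1.44 RPKM in WT, a log2 ratio of 1.501 with a 95% counting interval of 0.57 to 3.29 from 24 and 7 estimated reads. The 7 heart and striated muscle genes summed to 72.75 RPKM in the knockout with Dkk, 157 RPKM in the knockout and 6.90 RPKM in WT on day 10, and to 4.28 RPKM in the knockout with Dkk, 20.1 in the knockout and 3.75 in WT on day 6. On day 10, 7, 6 and 3 of the 7 reached 1 RPKM in the knockout with Dkk, the knockout and WT, none was at 0, and on day 6 Myl7 was at 0 in the knockout with Dkk. The part of muscle-like cells in the isoform levels was not tested.

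In 1 fit over all 10 libraries, the days of a culture served as the repeats for the knockout, Dkk and overexpression. For the knockout 0 of 81 members passed an adjusted p of 0.05, where 0.211% of all genes did. The test was limma with Benjamini-Hochberg adjustment over 13757 genes, and it called 27 genes higher and 2 lower. The smallest adjusted p of a member was 0.11, in Ndufa11, with a log2 difference of 0.83 (SE 0.17). At an unadjusted p under 0.05, 17 members were higher and 0 lower in the knockout, while 14.7% of all genes passed in either direction. Ndufs7 (0.997, SE 0.22, adjusted p 0.12), Uqcrq (0.93, SE 0.22, adjusted p 0.14) and Cox6b2 (0.83, SE 0.21, adjusted p 0.16) came next. Without the WT library of day 10 only 1 WT library is left in SFEB culture, so that fit is no check on the knockout term.

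Adding Dkk to knockout cells went with small differences. On day 6 the median log2 ratio, knockout with Dkk minus knockout, was -0.05 over members and 0.01 over all genes, and 0 members passed 1.5-fold in either direction, against 5.79% of all genes higher and 6.94% lower. On day 10 the median was 0.10, against -0.01 over all genes. Of 79 members 59 were above 0 on day 10, against 48.6% of all genes, and 30 on day 6, against 50.9%. The day 10 median was larger over 69 cytosolic ribosomal protein genes, at 0.27, and over 76 mitochondrial ones, at 0.20. It was -0.13 over 18 glycolysis genes and -0.10 over 15 regulators of mitochondrial genes. With equal library sums the members' day 10 median came near 0. By 1.5-fold, 3 members were higher on day 10, against 4.39% of all genes, and Cox6a2 alone was lower, against 10.1%. Cox6a2 passed the SFEB filter only through the knockout library without Dkk, so it had to be lower with Dkk. Cox6b2 had 21.95 RPKM with Dkk and 12.4 RPKM without, Atp5h, a peripheral stalk subunit, 512 RPKM with and 319 without, and Ndufs6 114 RPKM with and 71.1 without. The lowest ratios after Cox6a2 were -0.34 in Atp5s and -0.28 in Ndufa4. On day 6 the highest were 0.44 in Ndufb4, 0.39 in Cox6b2 and 0.27 in Cox4nb, and the lowest -0.45 in Ndufa4, -0.37 in Atp5j and -0.28 in Ndufs3.

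Over both days 26 members were higher with Dkk, against 28.7% of all genes, and 16 lower, against 28.1%. With limma 0 of 81 members were called for Dkk, against 0.131% of all genes. The smallest adjusted p was 0.75, and 1 member, Cox6b2, passed an unadjusted p under 0.05, against 5.68% of all genes. The knockout libraries serve in this contrast and in that of knockout and WT, so values of the 2 contrasts are not independent.

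With Tet3 overexpressed in FBS culture, the members' median lay near 0 on both days. On day 4 the median log2 ratio, overexpression minus control, was 0.04 over 80 members and -0.07 over all 12387 genes. On day 7 it was -0.04 and -0.03. On day 4, 8 members were higher by 1.5-fold, against 5.84% of all genes, and Ndufa4l2 alone was lower, against 10.7%. On day 7, 2 were higher, against 16.2%, and 5 lower, against 20.6%. Complex IV subunits had the highest median of the 5 complexes on both days, 0.14 on day 4 and 0.18 on day 7, over 15 genes.

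Cox5a, a matrix-side subunit of complex IV, was the single member past 1.5-fold on both days (3.16% of all genes were higher, and 0 members and 4.28% of all genes lower on both). It stood at 409 RPKM in overexpressing and 268 RPKM in control cells on day 7, and 430.3 in overexpressing and 282 RPKM in control cells on day 4. Both overexpression libraries lay above both control libraries, and the log2 ratio was 0.61 on each day. Uqcrq stood at 241 RPKM in overexpressing and 169.8 RPKM in control cells on day 7, and 354 in overexpressing and 182 RPKM in control cells on day 4. Cox4nb had 32.7 RPKM in overexpressing and 18.2 RPKM in control cells on day 7, and 34.7 in overexpressing and 25.1 RPKM in control cells on day 4. Lower in overexpressing cells on day 7 were Ndufa4, with 103 RPKM in overexpressing and 168 in control cells, and Ndufb11, a membrane-arm subunit of complex I, with 69.7 in overexpressing and 112 RPKM in control cells.

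On day 4 the highest ratios were 0.96 in Cox7a1, 0.96 in Uqcrq and 0.95 in Ndufs6, and the lowest were -1.30 in Ndufa4l2, -0.44 in Sdhd and -0.39 in Cox7c. Ndufa4l2 had 6.46 RPKM in overexpressing and 16.6 RPKM in control cells there, but 5.58 RPKM in overexpressing and 3.84 RPKM in control cells on day 7, so the sign differed between days. In the same FBS libraries the 6 pluripotency genes had a median log2 ratio of 0.76 on day 4 and 1.80 on day 7. Their part in the members' ratios was not tested. On both days together 28 members were higher, against 25.7% of all genes, and 26 lower, against 36.6%. With limma 0 of 81 members were called, against 0.0945% of all genes. The smallest adjusted p was 0.11 in Cox5a (log2 difference 0.61, SE 0.14), and 8 members higher and 6 lower passed an unadjusted p under 0.05, against 19.6% of all genes in either direction.

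**Figure D4:**
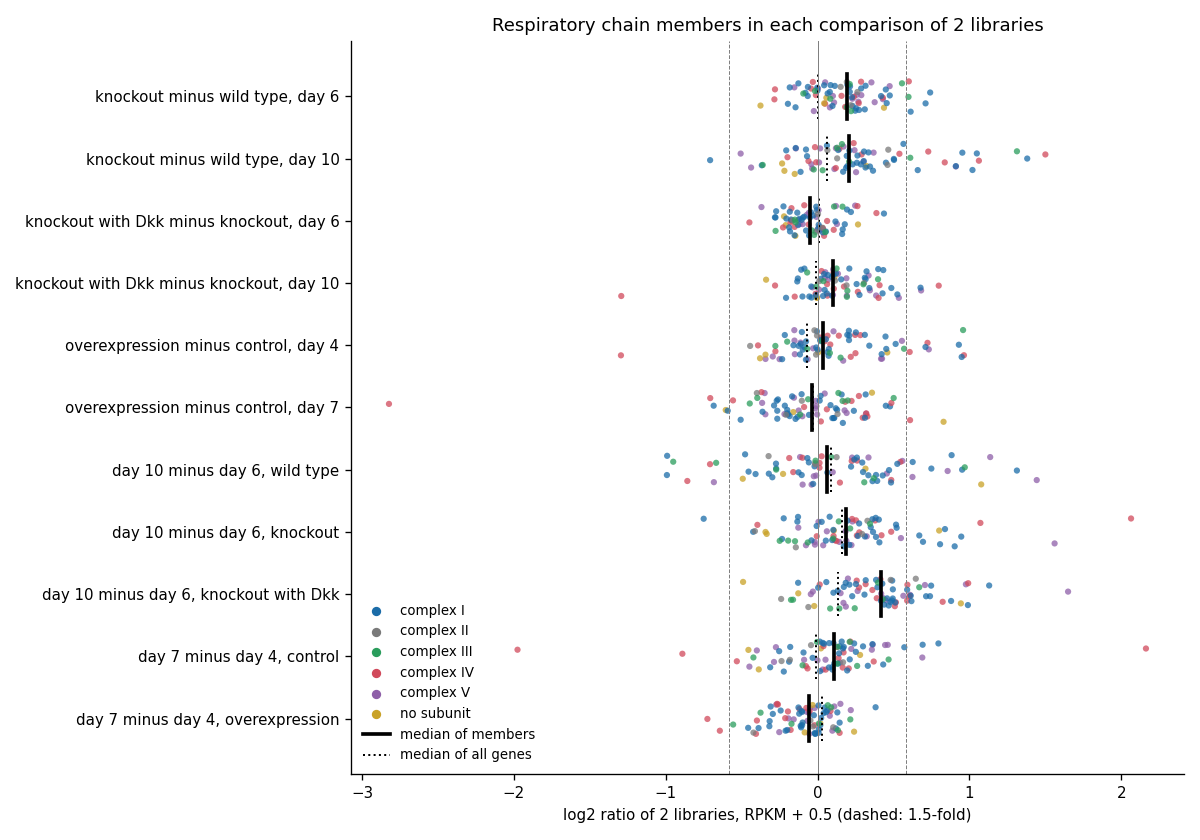
Each point is a member, with the log2 ratio of 2 libraries (RPKM + 0.5) across and comparisons down the page, thick bars marking the median of members and dotted bars that of all genes tested. Members with a library at 0 are left out. For knockout minus WT the medians of members are 0.20 on day 6 and 0.21 on day 10, against 0.00 and 0.06 for all genes, and the farthest point is Cox4i2 at -2.82.

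With time in SFEB culture some members rose, and how many depended on the scale. In the limma fit of the deposited RPKM 27 of 81 members were higher on day 10 than on day 6 and 2 were lower, at an adjusted p under 0.05. The repeats for this difference were the 3 SFEB conditions, of which 2 were knockout cells. The time effect was called in 46.3% of all genes, 28.2% higher and 18.1% lower. Those that rose were 16 of 34 complex I subunits, 2 of 8 in complex III, 3 of 16 in complex IV, 5 of 15 in complex V and Cox7a2l. Sdha, the flavoprotein of complex II, and Cox4nb fell. The members called were 35.8%, a smaller share than in the whole table, with 33.3% higher. The median of the fitted differences was 0.22 over members and 0.11 over all genes. With every library centred on its median, which takes 0.23 off every difference, 9 members were higher and 11 lower, against 20.3% and 27.3% of all genes. The median was then -0.01 over members and -0.12 over all genes. Of complex I, 5 subunits were then higher and 3 lower, and of complex V 2 were higher and 1 lower. The differences that follow are those of the deposited RPKM.

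Atp5l, subunit g of the membrane part of the ATP synthase, had the largest difference among the members called. It stood at 678 RPKM in the knockout with Dkk, 537 in the knockout and 550.1 in WT on day 10, and 216 in the knockout with Dkk, 182 in the knockout and 202 RPKM in WT on day 6. The 2 days did not overlap, and the fitted log2 difference was 1.55 (SE 0.10, limma adjusted p 0.00019). Cox7a2l stood at 215, 216 and 254 RPKM in the knockout with Dkk, the knockout and WT on day 10, and 112 in the knockout with Dkk, 124 in the knockout and 119.9 RPKM in WT on day 6. Its difference was 0.94 (SE 0.11, adjusted p 0.00093 by limma).

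Ndufb9 of the membrane arm had 216, 202 and 212 RPKM in the knockout with Dkk, the knockout and WT on day 10, and 117 in the knockout with Dkk, 105 in the knockout and 109 RPKM in WT on day 6. Ndufs8, an iron-sulphur subunit of the core, had 91.2 RPKM in the knockout with Dkk, 94.7 in the knockout and 84.2 in WT on day 10, and 45.7 in the knockout with Dkk, 52.7 in the knockout and 45.4 RPKM in WT on day 6. Their differences were 0.93 (SE 0.10) and 0.90 (SE 0.09), and the 3 values of day 10 lay close together in both genes. Ndufb2, Ndufa12, Ndufb6 and Ndufa10 of complex I, Atp5c1 of complex V and Uqcr11 of complex III complete the 10 members with the smallest p. Their differences were 0.91, 0.76, 0.58, 0.46, 0.75 and 0.66 on the log2 scale, with limma adjusted p from 0.0033 to 0.0073. With centred libraries the 10 were still higher, 9 of them at an adjusted p under 0.05 by limma and Ndufa10 with 0.23 at 0.086. Sdha had 80.9, 80.3 and 73.4 RPKM in the knockout with Dkk, the knockout and WT on day 10, and 95.6 in the knockout with Dkk, 107 in the knockout and 91.9 RPKM in WT on day 6, and fell by 0.33 (SE 0.09, adjusted p 0.029 in limma).

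The number of calls depended on single libraries. It was 13 without the knockout with Dkk of day 10, the SFEB library with the highest estimated depth, against 28.6% of all genes. It was 17 without WT of day 10, which stood apart by GC content, against 32.3% of all genes. Atp5l, Ndufb9 and Ndufs8 stood higher on day 10 in each of the 3 conditions.

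**Figure D5:**
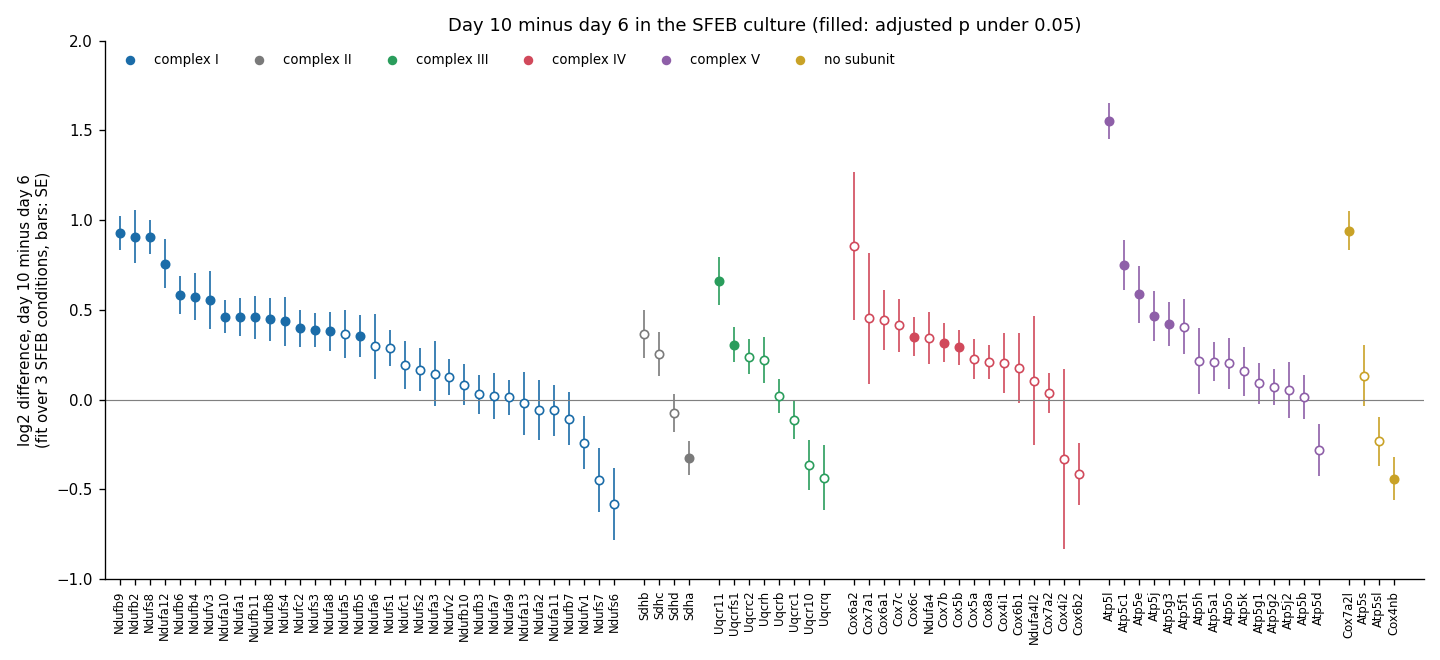
Points give the fitted log2 difference, day 10 minus day 6 in SFEB culture, for 81 members grouped by complex, with bars of 1 SE and filled points at an adjusted p under 0.05. On the scale of the deposited RPKM 27 filled points lie above 0, led by Atp5l at 1.55, and Sdha and Cox4nb below. With libraries centred on their medians, not drawn, 9 members were higher and 11 lower.

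Within the single conditions, the members' median of day 10 minus day 6 was 0.42 in the knockout with Dkk, 0.19 in the knockout and 0.06 in WT, against 0.14, 0.16 and 0.09 over all genes. Ribosomal protein genes had the same order of conditions. Their medians were -0.35, -0.65 and -0.83 for the cytosolic and -0.03, -0.28 and -0.37 for the mitochondrial ones. Glycolysis genes had another order, -0.26, -0.19 and -0.66. The part of the higher estimated depth of the knockout with Dkk of day 10 was not tested. In the knockout with Dkk 21 members were higher by 1.5-fold, against 29.4% of all genes, and 0 lower, against 16.5%. In the knockout 10 were higher, against 32.4%, and Ndufs6 alone lower, against 17.6%. The 10 include Cox6a2, which passed the SFEB filter only through the knockout library of day 10 and so had to be higher there. In WT 11 were higher, against 28.9%, and 7 lower, against 19.1%. Ndufs6, Ndufs7 and Uqcrq were the lowest in WT, at -0.99, -0.99 and -0.95, in the library that stood apart, and 69 of 79 members were above 0 in the knockout with Dkk, against 57.1% of all genes. Medians by complex there were 0.45 in I, 0.21 in II, 0.19 in III, 0.46 in IV and 0.42 in V.

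Other genes of energy metabolism moved in both directions over these days. Of 40 assembly factors, which build the complexes but do not stay in them, 10 rose and 4 fell in the limma fit, of 13 citric acid cycle enzymes 1 rose and 2 fell, and of 15 regulators of mitochondrial genes 3 rose and 6 fell. Of 76 mitochondrial ribosomal protein genes 6 rose and 23 fell, and of 69 cytosolic ones 0 rose and 48 fell. Among 18 glycolysis genes 5 rose and 8 fell. All 5 neuron genes rose, with a median of 4.05 on the log2 scale, as did 6 of 7 heart and striated muscle genes and 3 of 4 fibroblast and matrix genes. With centred libraries 3 assembly factors were higher and 12 lower, of the mitochondrial ribosomal protein genes 0 and 45, of the cytosolic ones 0 and 58, and of the glycolysis genes 3 and 10. The part of a changed mix of cells in the members' differences was not tested.

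In FBS culture the members' median of day 7 minus day 4 was -0.06 in overexpressing cells and 0.11 in control cells, against 0.03 and -0.01 over all genes. In overexpressing cells 0 members were higher by 1.5-fold, against 8.04% of all genes, and 2 lower, Cox4i2 and Cox7a1, against 4.30%. Uqcrq followed at -0.56, and the highest ratios were 0.38 in Ndufc2, 0.24 in Atp5s and 0.22 in Atp5c1. In control cells 4 were higher, against 20.4%, and 2 lower, against 18.2%. The highest were Cox4i2 at 2.16, Ndufa3 at 0.80 and Ndufa5 at 0.69, the Ndufa genes being accessory subunits of complex I. Ndufa4l2 had 3.84 RPKM on day 7 and 16.6 RPKM on day 4 in control cells, a log2 ratio of -1.98 with a 95% counting interval of -2.44 to -1.81. Cox7c, a small subunit of complex IV, and Cox6b2 followed at -0.89 and -0.53. With limma 0 of 81 members were called for the FBS day, against 0.451% of all genes, and 1 higher and 4 lower passed an unadjusted p under 0.05, against 18.3% of all genes, with a smallest adjusted p of 0.21.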

How the data were processed

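Total RNA of 10 mouse ES cell libraries was sequenced on a SOLiD instrument, per the labels. The authors deposited 1 table of RPKM values. The submitters' processing notes name HTSeq and the build mm9. The sources used here do not give the aligner, the annotation or the strand setting, so overlapping, antisense and paralogous genes are uncertain. Ratios are differences of log2(RPKM + 0.5), which understates changes of low genes, over genes that reached 1 RPKM in any library of the culture, and single comparisons have no test. limma 3.58.1 in R 4.3.3 (empirical Bayes with trend, two-sided) fitted culture and day plus knockout, Dkk and overexpression terms to all 10 libraries, with 3 residual degrees of freedom and Benjamini-Hochberg adjustment. The days served as repeats for the knockout, Dkk and overexpression terms, and the conditions of a culture for the day terms. An effect that differs between days or conditions enters the residual spread, and p-values measure only the spread between these libraries. On simulated data for the knockout, 74.5% of 200 genes changed by 2 on the log2 scale were recovered among 13757, with 4 false calls. The median fitted knockout difference of members was 0.20, and recovery at that size was not simulated. Read numbers were estimated from value steps with GENCODE vM21 transcript lengths (found for 98.3% of genes), and intervals are Clopper-Pearson. Figures and summaries used python 3.11.15, numpy 2.4.6, pandas 2.3.3, scipy 1.17.1 and matplotlib 3.10.9. Genes named were the paired isoforms, the extremes of each complex and comparison, and the first 10 limma calls of a contrast by p. Members, lists and alternatives were chosen with earlier results of these data known. The 13 mitochondrially encoded subunits were not analysed here.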

Additional observations from a re-analysis of the deposited data

Results flagged for a closer look

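Cox7a1, the heart and muscle isoform of complex IV subunit 7a, had ratios of opposite sign over time in 2 conditions of the SFEB culture. Day 10 minus day 6 was 1.07 in the knockout and -0.71 in WT on the log2 scale. The 95% counting interval was 0.06 to 2.41 in the knockout, from 24 and 10 estimated reads, and -2.52 to 0.52 in WT, from 7 and 12. The WT interval spans both signs, so a fall in WT is not set apart from counting error. Cox4i2, the lung isoform of subunit 4, also had ratios of opposite sign in FBS culture, where day 7 minus day 4 was -0.73 in overexpressing cells and 2.16 in control cells. Its counting intervals were -1.63 to -0.13 and 2.001 to 2.67. With 1 library per condition and day, neither difference was tested.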

How the results depend on the processing

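Members passing the limma test for the SFEB day numbered 29, where 46.3% of all genes passed. They numbered 17 with no filter on low values (21.3% of all genes), 16 without the trend (43.5%), 13 without the knockout with Dkk library of day 10 (28.6%) and 17 without the WT library of day 10 (32.3%), the last chosen after seeing the data. With libraries centred on their medians 9 were higher and 11 lower, in place of 27 and 2, against 20.3% and 27.3% of all genes. The cause of these shifts was not tested. Counts for the knockout, Dkk, overexpression and FBS day stayed at 0 with no filter, without the trend and with another pseudocount. They were 0 as well with a filter of 5 RPKM, centring on library medians or 1 culture alone. Fits with a library left out or on 1 culture have fewer residual degrees of freedom than the 3 of the main fit. A count of 0 there is a weak check. Centring on the median of all genes moved the members' median of day 10 minus day 6 to 0.028 in the knockout and to 0.28 in the knockout with Dkk. The medians of the other comparisons moved by less than 0.1 under every alternative run, but 2 changed sign and 1 came near 0. Centring took day 10 minus day 6 in WT to -0.03, and equal library sums took Dkk on day 10 to 0.0081 and overexpression on day 4 to -0.02. Members above in FBS numbered 9 with equal sums and 35 with equal medians, against 8.66% and 16.0% of all genes. Members below numbered 11 and 1, against 27.9% and 14.7%. When the control library of day 7 was left out, 8 were below, against 28.6%. These 3 alternatives were chosen after seeing the data. No paired analysis was possible because the labels give no replicate numbers to pair by, and the limma fit already held culture and day as terms. Estimated depths of 10100000 to 11300000 reads in 5 SFEB libraries limit what can be said of members under a few RPKM.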

Other observations

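Most of the 18 glycolysis genes on a list stood higher in knockout than in WT cells on day 10. There 13 exceeded WT by 1.5-fold or more, against 17.9% of all genes, and 0 were lower by that much, against 7.38%, with a median log2 ratio of 0.76. On day 6, 3 were higher, against 9.60% of all genes, and 1 lower, against 7.77%, with a median of 0.21. Ldha, which makes lactate, had 419 RPKM in the knockout and 230.1 RPKM in WT on day 10, against 525 in the knockout and 294 RPKM in WT on day 6. Pdk1, which restrains the entry of pyruvate into mitochondria, had 21.99 RPKM in the knockout and 9.85 RPKM in WT on day 10, but 5.63 in the knockout and 7.74 RPKM in WT on day 6. The WT library of day 10 is the one that stood apart by GC content, and its part in these values was not tested. The summed RPKM of the 18 genes was 9073 to 11595 in FBS libraries and 2493 to 5239 in SFEB libraries.

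Pprc1, a coactivator of nuclear genes for mitochondrial proteins, was lower on day 10 than on day 6 in all 3 SFEB conditions, with 11.4, 12.25 and 11.5 RPKM in the knockout with Dkk, the knockout and WT on day 10 and 45.2 in the knockout with Dkk, 43.4 in the knockout and 45.3 RPKM in WT on day 6. Esrrg, a nuclear receptor tied to oxidative metabolism, had 1.57 RPKM in the knockout with Dkk, 11.7 in the knockout and 4.48 in WT on day 10, and 0.29 in the knockout with Dkk, 0.28 in the knockout and 0.54 RPKM in WT on day 6. Ndufaf3, an assembly factor of complex I, had 11.65 RPKM in the knockout and 5.28 RPKM in WT on day 10, and 8.34 in the knockout and 5.96 RPKM in WT on day 6. Ldha, Pdk1, Pprc1, Esrrg and Ndufaf3 were named after their values were seen.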
